A study of Mus musculus with 31 samples.

Results

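The 8 arrays described here measured the distal colon of BALB/c mice that received the food colourant E171 for 21 days (4 arrays) or for 2 days (4 arrays). They were all the arrays labelled CRC + E171 at these days, out of 31 arrays in the series, and each group held 2 males and 2 females. E171 is food-grade titanium dioxide, given here by gavage at 5 mg/kg bw/day, 5 days a week. Every mouse, the CRC controls included, had been injected with azoxymethane (AOM), a colon carcinogen, a week before the start, and had dextran sodium sulphate (DSS), which injures the colon epithelium, in its drinking water over the first days. The mice were young, a few weeks old at the start, and 1 mouse gave 1 array. The controls (CRC) received the same AOM and DSS with the gavage vehicle, and 7 of their arrays (4 at 2 days, 3 at 21 days) served to test whether a change differed with E171. The mice of 2 days were killed while DSS was still given and those of 21 days long after it had stopped. Time on E171, time since DSS and age therefore cannot be told apart on these arrays.

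AOM and DSS together are used to model colitis-associated colorectal cancer, in which epithelial injury is followed by inflammation, repair and regrowth of the crypts. In such a tissue type I and type II interferons switch on a shared set of antiviral and antigen-presentation genes through transcription factors that include the IRF family. The colon also runs a circadian clock: the activators ARNTL (BMAL1), CLOCK and NPAS2 drive the Per, Cry, Nr1d (REV-ERB) and Dbp genes, and the REV-ERB proteins in turn repress Arntl and Npas2. A clock gene's level therefore varies with the hour of sampling, which the sources used here do not give.

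Levels are given as the log2 of an array's signal relative to its own 75th percentile, so that 0 is a bright probe and most genes are negative. The signal was well above background for 68.17 to 70.85% of the spots on the arrays of 21 days and for 71.18 to 77.85% on those of 2 days. The arrays of 21 days lay on other slides than those of 2 days, and within 1 of the 3 scan days both groups were present. The labelled sexes fitted the Xist and Y-linked signals on all 8 arrays. Epithelial markers were high on every array, with Epcam between 4.30 and 5.13, which marks epithelium of any gut segment. On 4 arrays transcripts of another tissue were present. The level of 21 pancreatic acinar genes, taken as the median over the genes after each gene's mean of all arrays was subtracted, was 10.003 on the array of female 2 at 2 days and 9.76 on that of female 2 at 21 days, against -1.86 to -1.18 on the other 6. The level of 15 squamous epithelium genes was 3.001 on the array of female 1 at 21 days and 1.95 on that of male 2 at 2 days. Posterior Hox genes, which mark the distal gut, were lowest on the array of male 1 at 21 days (-1.40, against -0.15 to 0.91 elsewhere). Counts without the acinar or the squamous arrays are given with the main lists below.

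Between 2 and 21 days with E171, 1463 of 19797 genes (7.39%) passed a linear fold change of 1.5 with an unadjusted p under 0.05, the rule for a differentially expressed gene (DEG) used below. Of these 413 (2.09% of all genes) were up-regulated and 1050 (5.3%) down-regulated. No gene had an adjusted p under 0.05 in limma with Benjamini-Hochberg adjustment, where the unadjusted p of 2632 genes (13.3%) was below 0.05. The smallest adjusted p was 0.0571, shared by 14 genes. The median change of all genes was -0.08 on the log2 scale. The excess of down-regulated DEG depended on the scaling: up-regulated genes made up 28.2% of DEG here, 42.5% after normexp background correction (774 DEG) and 53.4% after quantile normalization (1217 DEG). On 602 of the DEG the 4 arrays of 21 days did not overlap the 4 of 2 days, and over all genes the arrays were apart for 8.15% (4.52% higher and 3.63% lower at 21 days).

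Single arrays moved these counts. Without the array of female 2 at 2 days 838 genes were called, and without that of female 2 at 21 days there were 2347. Without both, that is without the arrays high in acinar transcripts, 1429 genes were called (162 higher, 1267 lower), of which 691 were among the 1463 in the same direction. Without both arrays high in squamous transcripts, 1383 genes were called (473 higher, 910 lower), 902 of them shared. Genes with an adjusted p under 0.05 numbered 111 without male 2 at 21 days and 48 without male 2 at 2 days. On the arrays of the shared scan day alone (males 2 and females 2 of 21 days against males 1 and females 1 of 2 days, 4 of the same 8 arrays), 1204 genes were called, of which 430 (29.4% of the 1463) were among the DEG in the same direction.

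The genes with the largest changes among those whose arrays did not overlap were 12 that rose and 12 that fell. Among them were members of the clock, of the cytotoxic lymphocyte programme and of the chemokines, and each group is described with its list below. Having been chosen for arrays that do not overlap, all 24 have the smallest p that an exact permutation test of 4 arrays against 4 can give (two-sided p = 0.0286).

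**Figure D1:**
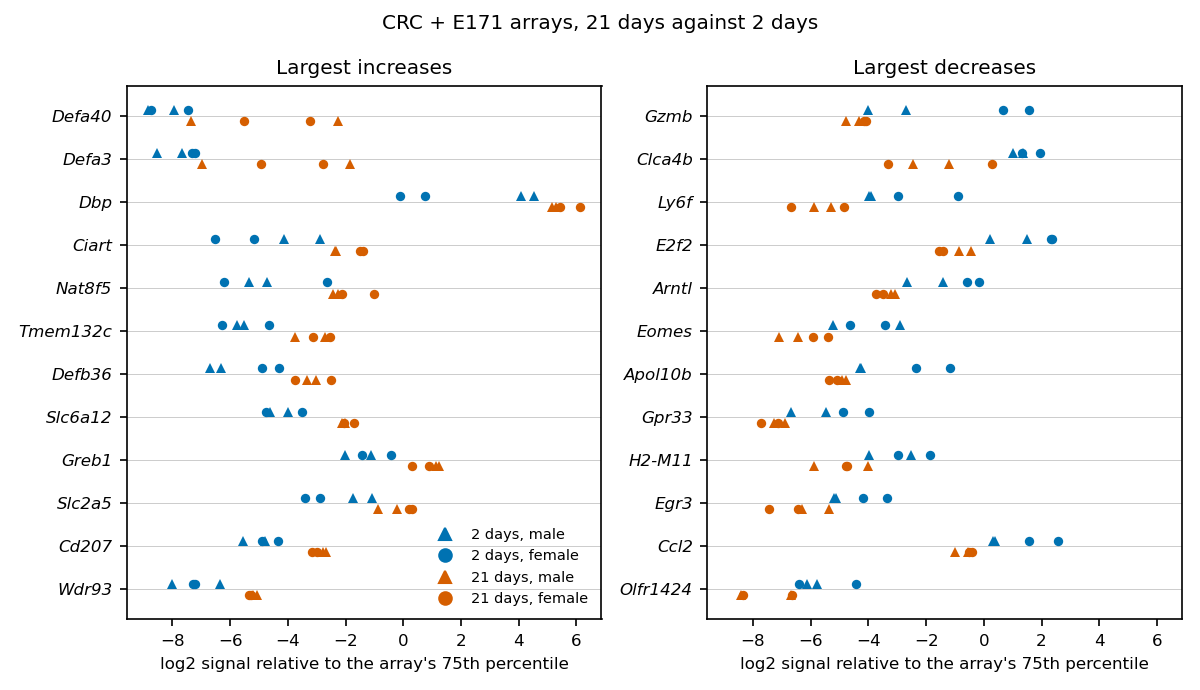
Signal of the 12 genes with the largest increases (left) and the 12 with the largest decreases (right) on each CRC + E171 array, as log2 signal relative to the array's 75th percentile. Blue symbols are the 4 arrays of 2 days, orange ones the 4 of 21 days, triangles males and circles females. For Dbp and Gzmb the 2 day females lie apart from the 2 day males, while for Slc6a12 and Cd207 the sexes mix.

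Among the rising genes outside the clock, Nat8f5, an N-acetyltransferase family member, lay at -4.73 and -5.35 in the males and -6.22 and -2.64 in the females of 2 days, and at -2.43 and -2.27 in the males and -2.12 and -1.03 in the females of 21 days (log2 fold change 2.77 ± 0.80 SE, limma unadjusted p = 0.00181, adjusted p = 0.143). The female 2 array of 2 days came closest to the later group. Slc6a12, a betaine and GABA transporter, lay between -4.75 and -3.51 at 2 days and between -2.12 and -1.71 at 21 days (2.24 ± 0.60, adjusted p = 0.125), and its change was 2.24 in males and in females. Greb1, an oestrogen-responsive gene, rose from between -2.02 and -0.44 to between 0.30 and 1.22 (2.14 ± 0.58, adjusted p = 0.129). Tmem132c rose from between -6.27 and -4.66 to between -3.77 and -2.53 (2.52 ± 0.70, adjusted p = 0.131). Nat8f5, Slc6a12, Greb1 and Tmem132c kept their call whichever single array was left out.

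Cd207, which encodes langerin of Langerhans cells and some other dendritic cells, rose from between -5.57 and -4.34 to between -3.15 and -2.67 (2.00 ± 0.58, adjusted p = 0.143). Wdr93 was well above background on 4 arrays of 21 days and on 1 array of 2 days, with levels of -5.36 to -5.07 against -8.03 to -6.35. Slc2a5, the fructose transporter GLUT5, lay at -1.75 and -1.1 in males and -2.87 and -3.41 in females at 2 days, and between -0.88 and 0.29 at 21 days (2.13 ± 1.03, unadjusted p = 0.0489, adjusted p = 0.371). Its call was lost when any of 6 single arrays was left out. Defb36, a beta-defensin, rose from between -6.70 and -4.31 to between -3.77 and -2.49 (2.40 ± 0.87, adjusted p = 0.248).

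The Paneth cell alpha-defensins Defa3 and Defa40 had no array well above background at 2 days and 3 of 4 at 21 days, so their increases are given as bounds, at least 4.56-fold and at least 3.31-fold. Each bound sets the mean of the arrays of 21 days against the lowest signal well above background on each array of 2 days. Defa3 lay at -1.84 and -6.98 in males and -4.93 and -2.78 in females at 21 days, and Defa40 at -2.27, -7.37, -5.52 and -3.22 in the same order. The order of the arrays was thus the same for both genes, and male 2 was lowest for each. Alpha-defensin genes are near-identical copies, so signal cannot be assigned to a single one, and Paneth cells belong to the small intestine and not to the colon. Defa24, a further member, changed by 1.56 ± 1.24 (unadjusted p = 0.219) with levels of -4.24 to -4.01 at 2 days and -3.98 to -1.13 at 21 days. Leaving out male 1 or female 2 of 21 days lost the call of both Defa3 and Defa40, and that of Defa3 was also lost without either male of 2 days. Both lost their call without the arrays high in acinar transcripts, with normexp background correction and with scan day as a block. Defa3 lost it without the arrays high in squamous transcripts as well.

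The decreases were led by Gzmb, which encodes the cytotoxic protease granzyme B. At 2 days it lay at -2.68 and -4.02 in males and 0.65 and 1.58 in females, and at 21 days at -4.77 and -4.31 in males and -4.07 and -4.15 in females (log2 fold change -3.21 ± 0.94, unadjusted p = 0.00214, adjusted p = 0.149). The arrays did not overlap, but male 2 of 2 days lay only just above the later group. Clca4b, a chloride channel regulator of the colon epithelium, fell from between 1.02 and 1.95 to between -3.31 and 0.28 (-3.09 ± 0.90, adjusted p = 0.148), by similar amounts in males (-3.01) and females (-3.16).

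E2f2, a transcription factor of the cell cycle, fell from 1.48 and 0.22 in males and 2.36 and 2.34 in females to -0.86 and -0.43 in males and -1.55 and -1.43 in females. Its log2 fold change was -2.67 ± 0.50 (unadjusted p = 1.45e-05, adjusted p = 0.0571), which is 6.36-fold lower. E2f2 thus had 1 of the 14 smallest adjusted p-values, and its change in CRC was -2.19. Msrb2, a mitochondrial methionine sulphoxide reductase that repairs oxidised protein, had the same adjusted p and was chosen after its values were seen. It rose from between -0.82 and 0.11 to between 0.60 and 1.31 (1.26 ± 0.22).

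Eomes, a transcription factor of cytotoxic and NK cells, lay between -5.22 and -2.92 at 2 days, where 4 of 4 arrays were above background, and between -7.08 and -5.39 at 21 days, where 1 of 4 was (-2.16 ± 0.58, adjusted p = 0.128). Apol10b fell from between -4.28 and -1.18 to between -5.38 and -4.78 (-2.03 ± 0.62), with a change of -0.59 in males and -3.47 in females. H2-M11, a nonclassical MHC class I gene, lay between -3.99 and -1.88 at 2 days and between -5.90 and -3.9995 at 21 days (-2.0 ± 0.49, adjusted p = 0.110). The nearest arrays of the groups, both males 1, lay at -3.9995 and -3.9909. Ly6f, of the LY6 surface protein family, fell from between -3.97 and -0.91 to between -6.67 and -4.85 (-2.74 ± 0.85, adjusted p = 0.174).

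For Gpr33, an orphan chemoattractant-receptor gene, and the olfactory receptor gene Olfr1424, no array of 21 days was well above background against 3 of 4 at 2 days. The decreases were at least 1.62-fold and at least 1.19-fold. Of 411 olfactory receptor genes tested, 54 were down-regulated DEG and 2 up-regulated, with a median change of -0.56, against 5.3% and 2.09% of all genes called down and up. A median of 57.5% of them was above background on the arrays of 21 days and of 85.6% on those of 2 days. The part of this difference in detection in the family's count was not tested.

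The circadian clock list held 20 genes, of which 5 rose and 2 fell as DEG, against 2.09% and 5.3% of all genes. The list's median change was 0.56, against -0.08 for all genes. The genes that rose were outputs and repressors (Dbp, Ciart, Nr1d2, Tef and Bhlhe40), and those that fell were the activators Arntl and Npas2. Without the arrays high in acinar transcripts 1 gene (Ciart) was called up and 2 down, and without those high in squamous transcripts 8 up and 3 down. Without female 2 of 2 days 2 genes were called up, and without male 2 of 2 days 8.

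**Figure D2:**
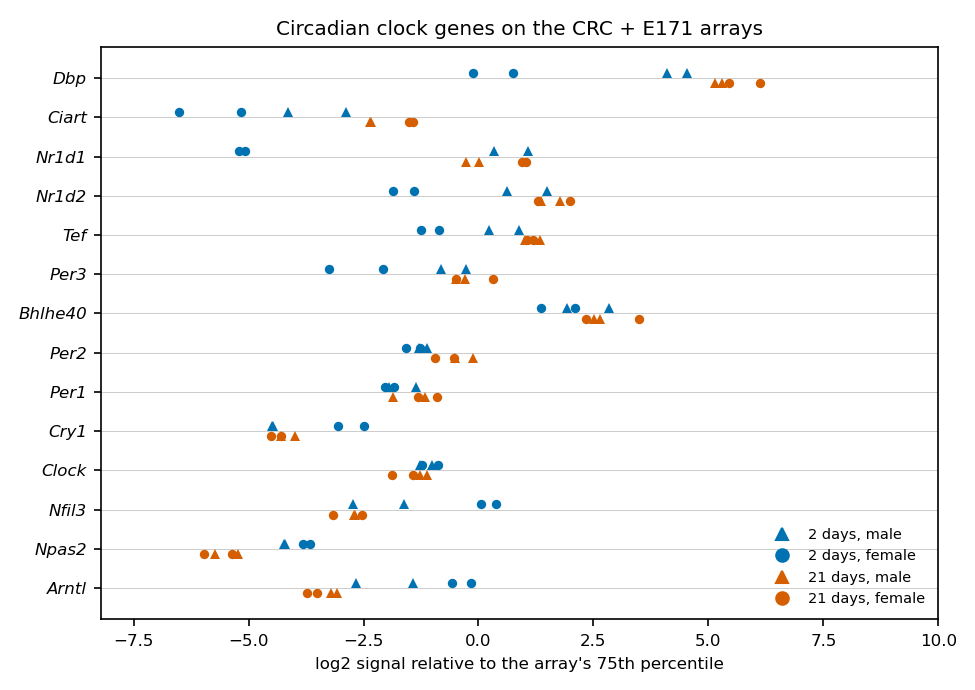
Signal of 14 of the 20 clock genes on each CRC + E171 array, as log2 signal relative to the array's 75th percentile. Blue symbols are arrays of 2 days, orange ones arrays of 21 days, triangles males and circles females. The 2 day females are lowest for Dbp, Nr1d1, Nr1d2, Tef and Per3 and highest for Arntl, Npas2 and Nfil3.

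Dbp, a PAR bZIP transcription factor that follows the clock, lay at 4.09 and 4.54 in the males of 2 days and at 0.74 and -0.12 in the females. At 21 days it lay at 5.30 and 5.15 in males and 5.44 and 6.12 in females (log2 fold change 3.19 ± 1.06, unadjusted p = 0.00577, adjusted p = 0.208). All 4 later arrays were above all earlier ones. The change was 0.91 in males and 5.47 in females (p of the difference 0.000997 before adjustment).

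Ciart, a repressor of the clock, lay at -4.15 and -2.88 in males and -6.51 and -5.17 in females at 2 days. At 21 days its level was -2.34 and -2.37 in males and -1.51 and -1.41 in females (2.77 ± 0.73, adjusted p = 0.120). The arrays did not overlap, and the call held whichever array was left out. Nr1d2, which encodes REV-ERB beta, lay at 0.61 and 1.5 in males and -1.39 and -1.85 in females at 2 days, and between 1.30 and 1.98 at 21 days (1.88 ± 0.69, adjusted p = 0.252), so male 2 of 2 days overlapped the later group.

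Nr1d1, which encodes REV-ERB alpha, did not pass over both sexes (2.65 ± 1.44, unadjusted p = 0.0769). At 2 days it lay at 0.34 and 1.07 in males and -5.08 and -5.20 in females, and at 21 days at 0.01 and -0.28 in males and 0.95 and 1.04 in females. Its change was -0.84 in males and 6.13 in females, a difference of -6.97 ± 1.40 (unadjusted p = 0.00011, adjusted p = 0.308, the smallest of the test between sexes). Only the 2 day females stood apart for this gene.

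Arntl fell from -1.43 and -2.65 in males and -0.16 and -0.58 in females at 2 days to -3.20 and -3.08 in males and -3.72 and -3.51 in females (-2.17 ± 0.53, unadjusted p = 0.000375, adjusted p = 0.110), which is 4.51-fold lower. Npas2 fell from -4.21 and -4.24 in males and -3.66 and -3.81 in females to -5.73 and -5.23 in males and -5.98 and -5.35 in females (-1.59 ± 0.30, unadjusted p = 1.50e-05, adjusted p = 0.0571). For both genes the arrays were apart, the change was present in males as well as in females, and Clock, the third activator, changed by -0.33 ± 0.24 (unadjusted p = 0.181). On the arrays of the shared scan day Arntl changed by -2.50 and Dbp by 3.22.

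Tef, a relative of Dbp, rose from between -1.24 and 0.89 to between 1.02 and 1.35 (1.39 ± 0.60, unadjusted p = 0.0283). Bhlhe40, a repressor that competes with ARNTL and CLOCK for E-boxes, rose by 0.69 ± 0.29 (unadjusted p = 0.0244), with overlapping arrays. The remaining 12 clock genes beside Nr1d1 did not pass. Nfil3, which opposes DBP at D-boxes, changed by -1.79 ± 0.87 (unadjusted p = 0.0502), Per3 by 1.36 ± 0.68 (unadjusted p = 0.0555) and Per2 by 0.79 ± 0.47 (unadjusted p = 0.103).

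The clock's activators bind the E-box CACGTG, and the windows upstream of 2 called genes are printed because they hold it. Among the 250 bases upstream of gene starts (RefSeq, build GRCm38.p6), 1852 of 26996 genes (6.86%) held CACGTG, a word that reads the same on both strands. Of the 16 clock genes with a window, 5 did (Cry1, Bhlhe41, Per1, Tef and Ciart), and of the 6 called genes with a window 2 did. The last 150 bases before the start are shown in the direction of the gene, with each CACGTG in capitals. For Ciart they are the minus strand of chr3:95882229-95882378 and for Tef, at the first of its 2 starts, the plus strand of chr15:81802523-81802672.
Ciart: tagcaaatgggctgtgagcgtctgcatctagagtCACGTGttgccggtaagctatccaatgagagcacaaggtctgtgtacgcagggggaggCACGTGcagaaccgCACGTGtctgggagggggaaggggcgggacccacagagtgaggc
Tef: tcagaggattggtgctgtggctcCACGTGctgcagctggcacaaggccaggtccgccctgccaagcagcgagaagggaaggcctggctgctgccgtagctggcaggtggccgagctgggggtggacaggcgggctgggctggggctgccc
The 3 E-boxes of Ciart began 116, 58 and 44 bases before its start and that of Tef 127 bases before. The D-box TTATGTAA, searched on both strands, was in the window of Per3 alone among the list, against 0.974% of all genes. A match is a run of letters and no measure of binding.

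The clock genes changed at 21 days in CRC mice as well. In CRC 6 of the 20 rose and 2 fell, against 2.11% and 1.48% of all genes, with a median of 0.64. Dbp changed by 2.89, Ciart by 3.14, Nr1d2 by 1.80, Arntl by -2.25 and Npas2 by -1.06 in CRC, and the difference from the change with E171 had an unadjusted p between 0.240 and 0.932 for these 5 genes in limma. Of the 20 genes, Bhlhe41, a repressor related to BHLHE40, passed the DEG rule for the difference (unadjusted p = 0.0271, adjusted p = 0.9995), which 2.26% of all genes passed. Relative to the same 2 day arrays, Dbp had changed by -0.54 at 7 days and 0.26 at 14 days with E171, and Arntl by 0.19 and -0.47. These contrasts share the 2 day arrays with the one at 21 days.

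The list of 35 interferon-stimulated genes had the largest share of DEG among the 52 lists examined: 19 (54.3%) fell and none rose, against 5.3% of all genes down-regulated. All 35 had a negative fold change, from -2.80 to -0.26 with a median of -1.30. No member had arrays without overlap. The list's level was 0.08 and -1.41 in the males of 2 days and 1.76 and 2.23 in the females, and at 21 days -0.17 and -1.05 in males and -0.89 and -0.84 in females. The 2 day females stood above all other arrays of the 8, and the 2 day male 2 lay below the arrays of 21 days. The median change of the 35 genes was -3.06 in females (from -5.56 to -0.83) and 0.03 in males (from -0.83 to 1.03). The difference between the sexes passed the DEG rule without adjustment for 31 of the 35, against 8.3% of all genes. After adjustment no gene passed (smallest adjusted p 0.308).

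**Figure D3:**
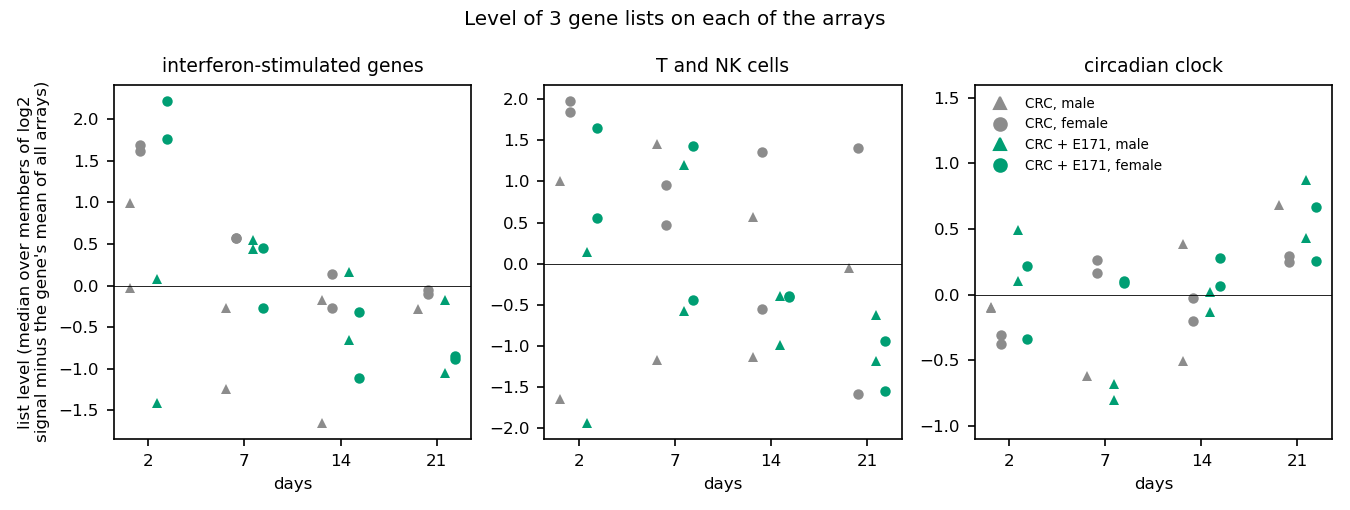
Level of 3 gene lists on each of the 31 arrays by day (horizontal axis), as the median over the list's genes of the log2 signal minus the gene's mean of all arrays. Green symbols are CRC + E171 and grey ones CRC, triangles males and circles females. In the clock panel the CRC array of male 2 at 7 days (-1.43) lies below the axis and is not shown. The interferon-stimulated genes of the 2 day females with E171 lie at 1.76 and 2.23 and those of the CRC females of 2 days at 1.62 and 1.69.

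Cxcl10, an interferon-induced chemokine that attracts T cells, lay at -1.37 and -3.62 in males and 0.83 and 2.45 in females at 2 days. At 21 days it lay at -2.06 and -3.02 in males and -3.52 and -4.33 in females (-2.80 ± 0.99, unadjusted p = 0.00876, adjusted p = 0.233, exact permutation p = 0.114). Iigp1, an immunity-related GTPase, lay at 0.28 and -1.65 in males and 3.23 and 3.52 in females at 2 days, and between -1.77 and -0.54 at 21 days (-2.70 ± 0.79, adjusted p = 0.148). Its change was -0.43 in males and -4.98 in females. In both genes male 2 of 2 days lay among the arrays of 21 days.

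Gbp6, a guanylate-binding protein, lay at -0.77 and -3.30 in males and 1.87 and 2.63 in females at 2 days, and between -2.94 and -1.39 at 21 days (-2.46 ± 0.91, adjusted p = 0.255). Ifit2, an antiviral RNA-binding protein, lay at -0.44 and -2.01 in males and 2.07 and 2.35 in females at 2 days, and between -2.42 and -0.83 at 21 days (-2.15 ± 0.86, adjusted p = 0.291). The signal transducer Stat2 changed by -1.02 ± 0.42, by 0.09 in males and by -2.13 in females. Other called members were the GTPases Gbp2, Gbp3, Gbp4, Igtp, Irgm1 and Irgm2, the antigen-processing genes Tap1 and Psmb9, and Ifi44, Zbp1, Socs1, Mx2 and Irf1, with fold changes from -2.15 to -1.05. Ifng itself, the gene of interferon gamma, lay at -4.29 and -7.42 in males and -1.65 and -0.16 in females at 2 days and between -6.06 and -4.71 at 21 days (-2.0 ± 1.02, unadjusted p = 0.0602).

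The count in this list varied with the 2 day arrays. Without female 2 of 2 days 3 of the 35 were called, without female 1 of 2 days 5, and without male 2 of 2 days 32. The median ranged from -2.03 to -0.83 as single arrays were left out. Without the arrays high in acinar transcripts 3 were called (median -0.81) and without those high in squamous transcripts 28 (median -1.97). Within the shared scan day, where male 1 and female 1 stand for 2 days, the median was -1.85.

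The sequences upstream of 4 of these genes are printed because these GTPase genes, called lower, hold interferon-responsive words close to their starts. Windows of the called GTPase genes Gbp4, Gbp6, Iigp1 and Mx2 were not searched. Gbp3, also a called GTPase gene, held such words 45 and 39 bases before a start and is not printed. The ISRE was searched as a pair of GAAA words with any 2 bases between them and the GAS element as TTCNNNGAA, on both strands, in the 250 bases upstream. The ISRE was in the window of 15 of 26 interferon-stimulated genes with a window (57.7%), against 3.45% of 26996 genes. The GAS word was in 7 of the 26 (26.9%), against 8.12%. Among the 13 called genes with a window 8 held the ISRE and 4 the GAS word. The last 150 bases before each start follow in the direction of the gene, with both words in capitals: Igtp on the plus strand of chr11:58199406-58199555, Irgm2 on the plus strand of chr11:58214827-58214976, Irgm1 on the minus strand of chr11:48871421-48871570 and Gbp2 on the plus strand of chr3:142620513-142620662.
Igtp: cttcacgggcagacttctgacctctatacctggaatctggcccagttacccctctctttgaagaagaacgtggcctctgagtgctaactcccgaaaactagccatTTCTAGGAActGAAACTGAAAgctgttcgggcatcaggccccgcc
Irgm2: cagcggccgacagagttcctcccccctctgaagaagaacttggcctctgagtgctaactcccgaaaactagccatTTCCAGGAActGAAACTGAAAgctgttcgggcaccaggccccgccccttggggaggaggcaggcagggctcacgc
Irgm1: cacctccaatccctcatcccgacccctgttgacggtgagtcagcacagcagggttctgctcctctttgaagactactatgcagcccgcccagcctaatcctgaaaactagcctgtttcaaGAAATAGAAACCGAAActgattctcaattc
Gbp2: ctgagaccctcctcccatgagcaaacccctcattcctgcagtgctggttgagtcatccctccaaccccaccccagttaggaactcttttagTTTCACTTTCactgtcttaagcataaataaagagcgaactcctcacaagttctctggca
Igtp and Irgm2 carry the GAS word and the ISRE next to each other, 45 and 34 bases before the start in Igtp and 75 and 64 bases before it in Irgm2. In Irgm1 a pair of overlapping ISRE words began 30 and 24 bases before the start, and in Gbp2 the ISRE began 59 bases before. Igtp changed by -2.03, Irgm2 by -1.51, Irgm1 by -1.28 and Gbp2 by -1.34. The list was made of interferon targets, so the share of these words describes the list and not the change.

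In CRC mice 15 of the 35 interferon-stimulated genes fell between the same days, against 1.48% of all genes, and none rose, with a median of -1.19. Cxcl10 changed by -2.99 and Iigp1 by -1.79. The difference of the changes passed the DEG rule for none of the 35, against 2.26% of all genes. With E171 the list's median was -0.34 at 7 days and -1.17 at 14 days relative to the same 2 day arrays.

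Genes of T and NK cells had a median change of -1.24, and all 22 were below 0. The median was -2.41 in females, with all 22 below 0, and -0.27 in males, with 17 below 0. The cytotoxic genes Gzmb and Gzma and the receptor chain Cd247 passed (13.6% of the list, against 5.3% of all genes). Gzma, granzyme A, lay at -0.70 and -2.23 in males and 2.87 and 3.92 in females at 2 days, and between -2.30 and -1.0 at 21 days (-2.87 ± 1.0, adjusted p = 0.233). Cd247, the CD3 zeta chain, fell from between -4.39 and -2.16 to between -5.89 and -4.41 (-1.68 ± 0.51, adjusted p = 0.169). The nearest arrays of Cd247, both males 2, lay at -4.41 and -4.39. The T cell receptor chains Cd3d (-1.26 ± 0.93) and Cd3e (-0.87 ± 0.60) did not pass. In bulk tissue fewer cells of a type and less RNA per cell cannot be told apart.

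As with the interferon list, male 2 of 2 days had the lowest level of T and NK cell genes (-1.93), below the arrays of 21 days (-1.55 to -0.63), and the other 2 day arrays lay at 0.14 to 1.65. Without that array 15 of the 22 genes were called and the median was -1.95. Without female 2 of 2 days 2 were called and the median was -0.75. Without the arrays high in squamous transcripts 9 were called (median -1.76) and without those high in acinar transcripts 3 (median -0.84). The same array was low in MHC class II genes (-1.44) and in B cell genes (-1.52), and it was 1 of the 2 arrays high in squamous genes.

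All 13 MHC class II genes, which present antigen to helper T cells, were below 0, with a median of -0.99, and 2 passed (15.4%, against 5.3% of all genes). In females the median was -2.07 with all 13 below 0, and in males 0.08 with 2 below 0. Ciita, the master activator of the class, changed by -1.32 ± 0.61 (unadjusted p = 0.0411), by 0.01 in males and -2.66 in females. H2-Aa lay at 1.03 and -0.18 in males and 1.72 and 2.33 in females at 2 days, and between -0.44 and 0.30 at 21 days (-1.31 ± 0.58, unadjusted p = 0.0324). Cd74, the invariant chain, lay at 3.54 to 6.44 at 2 days and 4.24 to 4.96 at 21 days, and did not pass. Without male 2 of 2 days 7 of the 13 were called, and none was without either female of 2 days, without female 1 of 21 days or without the arrays high in acinar transcripts. Ciita lost its call without any of 6 single arrays. Without the arrays high in squamous transcripts 6 were called.

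B cell and plasma cell genes had a median of -0.79, with Cd22, an inhibitory B cell receptor, the 1 of 20 that passed (-1.1 ± 0.43), against 5.3% of all genes called lower, and Cd79a and Cd79b at -0.91 ± 0.97 and -0.78 ± 1.20. The median was -1.83 in females and 0.56 in males, where 4 of 20 were below 0. It ranged from -1.32 to -0.38 as single arrays were left out and was -0.35 without the arrays high in acinar transcripts, where no gene was called.

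Of 35 inflammatory cytokines and chemokines 4 fell (11.4%, against 5.3% of all genes) and none rose (median -0.74). The monocyte chemoattractant Ccl2 lay at 0.31 and 0.40 in males and 1.57 and 2.58 in females at 2 days and at -0.54, -1.0, -0.42 and -0.50 at 21 days (-1.83 ± 0.76, adjusted p = 0.305). Ccl7, a related ligand of CCR2, fell by 1.59 ± 0.62, and its arrays were apart too. Ccl4 and Tnf changed by -1.94 ± 0.82 and -1.24 ± 0.47, with overlapping arrays. The receptor Ccr2 of monocytes fell by 1.18 ± 0.51, and so did the monocyte genes Fcgr1 (-1.03 ± 0.42) and Ly6c2 (-1.1 ± 0.49). These 3 were the called members among 19 macrophage and monocyte genes (15.8%, against 5.3% of all genes), whose median was -0.26, while Cd68 changed by 0.13 ± 0.38. Of the macrophage and monocyte list none was called without either female of 2 days, 1 without the arrays high in acinar transcripts and 5 without those high in squamous transcripts. The median of the cytokine list was -0.48 under quantile normalization and -0.30 under normexp. Without female 2 of 2 days none of the cytokine list was called, and without male 2 of 2 days 8 were. The count was 1 without the arrays high in acinar transcripts and 6 without those high in squamous transcripts.

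None of 19 neutrophil genes passed, while 17 were below 0 (median -0.44, with -0.89 in males and -0.02 in females). Under normexp the median was -0.17. The list's level was -1.31 to -0.38 at 21 days and -0.37 to 0.16 at 2 days. S100a8 and S100a9, the calprotectin chains, lay highest on the array of female 1 at 21 days (0.60 and 1.18), 1 of the 2 arrays high in squamous genes, which also express them. Among 18 complement genes C1ra passed (5.56%, against 5.3% of all genes called lower; -1.04 ± 0.44), with 0.59 to 1.12 at 21 days against 1.27 to 2.77 at 2 days. No complement gene was called without the arrays high in acinar transcripts, and 5 were without those high in squamous transcripts. Ly6a, a surface protein of lymphoid and regenerating epithelial cells that also responds to interferon, lay at 5.30 and 3.57 in males and 6.32 and 6.74 in females at 2 days and between 3.42 and 4.05 at 21 days (-1.73 ± 0.66). It was the 1 called gene of 16 on the list of fetal-like repair epithelium (6.25%, against 5.3% of all genes), where Anxa1 changed by -0.35 ± 0.65.

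Of 12 genes listed as glucocorticoid targets 5 were up-regulated DEG (41.7%, against 2.09% of all genes), and 11 of 12 had a change above 0 (median 0.56). Sgk1, a kinase that raises sodium uptake, lay at 2.34 and 3.38 in males and 3.28 and 2.70 in females at 2 days and at 4.19, 4.6, 4.80 and 3.95 at 21 days (1.46 ± 0.50, unadjusted p = 0.00751, adjusted p = 0.224). Cyp11a1 was counted as 1 of the 5, although it is the enzyme that begins steroid synthesis. It rose from between -4.43 and -4.08 to between -3.42 and -1.83 (1.59 ± 0.63). The arrays of both genes were apart, and both rose in males and in females. The call of Sgk1 held whichever array was left out, and that of Cyp11a1 was lost without female 2 of 21 days. Without female 1 of 21 days, or without the arrays high in acinar transcripts, 3 of the 12 were called, and without those high in squamous transcripts 4.

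Zbtb16 lay at -2.58 and -2.33 in males and -1.49 and -2.32 in females at 2 days, and at -0.36 and -0.33 in males and -1.51 and -1.23 in females at 21 days (1.32 ± 0.39, adjusted p = 0.153). Fkbp5, a co-chaperone of the glucocorticoid receptor, changed by 0.90 ± 0.42 (unadjusted p = 0.0398), by 1.44 in males and 0.37 in females. Klf9, a transcription factor, rose by 0.63 ± 0.25 (unadjusted p = 0.0195). Tsc22d3 (GILZ) did not pass (0.46 ± 0.31). Per1, which belongs to the clock list as well, was at 0.49 ± 0.25 (unadjusted p = 0.0640). Leaving out any of 5 single arrays lost the call of Fkbp5. In CRC 4 of the 12 rose, against 2.11% of all genes, with a median of 0.62, Zbtb16 by 1.38, Fkbp5 by 1.07 and Sgk1 by 0.68, and the difference between the treatments passed the DEG rule for none of the 12.

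Sgk1 was also the 1 called gene of 11 sodium uptake genes (9.09%, against 2.09% of all genes called higher; median 0.67), where the channel subunits Scnn1a and Scnn1b changed by -0.20 ± 0.36 and 0.67 ± 0.42.

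The window of Sgk1 is printed because it holds the full glucocorticoid response element, in capitals. The element was searched on both strands as AGAACA and TGTTCT with any 3 bases between them, and was found upstream of 3 of 26996 genes (0.0111%) and of 1 of the 11 glucocorticoid targets with a window. It began 189 bases before the fifth of 6 starts of the gene. The 250 bases before that start are the plus strand of chr10:21993640-21993889.
Sgk1: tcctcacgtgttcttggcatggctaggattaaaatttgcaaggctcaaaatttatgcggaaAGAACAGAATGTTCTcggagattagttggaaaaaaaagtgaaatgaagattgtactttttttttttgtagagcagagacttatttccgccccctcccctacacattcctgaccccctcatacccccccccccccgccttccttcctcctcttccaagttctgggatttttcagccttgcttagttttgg

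All 20 cholesterol synthesis genes measured were below 0 (median -0.41), and 2 passed, against 5.3% of all genes. The median was -0.68 in females, with 19 below 0, and -0.13 in males, with 16 below 0. Sqle, squalene epoxidase and 1 of those that passed, fell from between -1.31 and -0.70 to between -2.25 and -1.45 (-0.79 ± 0.23, unadjusted p = 0.00258). The arrays of Sqle were apart. Without male 1 of 21 days 6 of the 20 were called and without female 2 of 21 days 1 was, as without the arrays high in acinar transcripts, while without those high in squamous transcripts 2 were. With scan day as a block 8 were called, and in the authors' normalized values 5. In CRC 5 of the 20 fell, against 1.48% of all genes, with a median of -0.65.

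Immediate-early genes, which are induced within minutes by growth factors or handling, held 4 decreases among 17 (23.5%, against 5.3% of all genes; median -0.30). Egr1 lay at -0.55 and 1.31 in males and 0.05 and 0.69 in females at 2 days and between -1.62 and -1.21 at 21 days (-1.80 ± 0.48, unadjusted p = 0.000929, adjusted p = 0.125). It fell alike in males (-1.72) and females (-1.88) and its call held whichever single array was left out. Its change in CRC was -0.12, and the difference of -1.68 had an unadjusted p of 0.0253 and an adjusted p of 0.9995 in limma. Egr3 was above background on 4 arrays of 2 days and 1 of 21 days (-1.92 ± 0.91), and Fos and Atf3 changed by -1.09 ± 0.49 and -1.38 ± 0.47, with overlapping arrays. Egr3 lost its call without any of 5 single arrays, without the acinar or the squamous arrays and with scan day as a block. The same held with normexp and with quantile normalization. Fos lost its call without any of 3 single arrays and Atf3 without male 2 of 2 days. Fosb did not pass (-0.87 ± 0.54). Without male 2 of 2 days, or without either female of 21 days, 2 of the 17 were called. The count was 2 without the arrays high in acinar transcripts and 1 without those high in squamous transcripts.

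In the EGF receptor family, whose ligands drive epithelial regrowth, 3 of 13 fell and 1 rose, against 5.3% and 2.09% of all genes. Egfr lay between -1.76 and -1.13 at 2 days and between -2.71 and -1.67 at 21 days (-0.65 ± 0.25), and Erbb4 changed by -0.83 ± 0.38. The call of Erbb4 was lost without any of 5 single arrays, without the squamous arrays and with scan day as a block. That of Egfr was lost without female 1 of 2 days or female 2 of 21 days, and without the acinar arrays. Egfr also lost it with normexp and with quantile normalization. Hbegf, a ligand, fell by 1.36 ± 0.41 (unadjusted p = 0.00268), while Tgfa, another ligand, rose from between -2.81 and -2.35 to between -2.33 and -1.31 (0.65 ± 0.28). Erbb2 changed by 0.20 ± 0.32. The list's median was -0.32 and moved to -0.05 with normexp and -0.08 with quantile normalization. It ranged from -0.58 to -0.13 as single arrays were left out, and the called increase was lost without male 1 or female 1 of 21 days, without either female of 2 days, and without the arrays high in squamous transcripts. It held without those high in acinar transcripts, where 2 genes were called lower.

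Of 26 collagen and matrix genes 25 were below 0 (median -0.59) and 3 passed (11.5%, against 5.3% of all genes): Sparc (-0.70 ± 0.27), Col15a1 (-0.72 ± 0.32) and Col6a3 (-0.68 ± 0.32). The fibrillar collagens Col1a1 and Col1a2 changed by -0.79 ± 0.41 and -0.84 ± 0.42 and did not pass. None of the 17 fibroblast genes passed (median 0.01). Female 2 of 21 days was lowest for all 3, at 0.58 for Sparc, -5.41 for Col15a1 and -1.42 for Col6a3, and without that array, or without both arrays high in acinar transcripts, none of the 26 was called. Without either male of 2 days, or without the arrays high in squamous transcripts, 1 was called, and without female 2 of 2 days 5 were.

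None of 18 surface colonocyte genes, 16 goblet cell genes, 15 enteroendocrine genes, 11 tuft cell genes or 19 crypt stem cell and Wnt target genes passed. Car1 changed by 0.56 ± 1.24, Muc2 by -0.42 ± 1.06, Chga by -0.13 ± 0.76, Lgr5 by 0.96 ± 0.92 and Ascl2 by 1.19 ± 0.64, and the standard errors of these 5 ranged from 0.64 to 1.24. They rest on a variance pooled over all groups of the series, not on the spread of the arrays compared here. With E171 the goblet list's level had a standard deviation of 0.25 at 2 days and 0.34 at 21 days. It was widest in CRC at 7 days (2.46) and with E171 at 14 days (2.04). For surface colonocytes these values were 0.16, 0.29, 2.12 and 1.4. Lgr5 lay lowest in the 2 day males (-5.12 and -7.03) and at -2.83 and -2.88 in the 2 day females. Among 14 pan-epithelial and 17 tight junction genes Cldn4, a tight junction claudin, was among those that fell (-0.80 ± 0.37), with 1 called in the first list and 2 in the second, against 5.3% of all genes. Its call was lost without any of 5 single arrays, without the acinar or the squamous arrays, with quantile normalization and with scan day as a block.

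Of 22 proliferation genes Tk1 fell (-0.65 ± 0.26), which is 4.55% of the list against 5.3% of all genes, while Mki67 and Top2a changed by -0.28 ± 0.33 and -0.78 ± 0.49. The list's level was 0.63 and 0.80 in the 2 day females and -0.22 and -0.86 in the 2 day males. Its median change was -0.87 in females and -0.01 in males, and the difference between sexes passed without adjustment for 8 of the 22, against 8.3% of all genes. Without male 2 of 2 days 10 of the 22 were called lower, and without the arrays high in squamous transcripts 9. None was without either female of 2 days or either male of 21 days, and Tk1 also lost its call with quantile normalization and with normexp.

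None of 21 NRF2 targets and antioxidant genes passed (median 0.08), with Hmox1 at 0.05 ± 0.56 and Nqo1 at 0.68 ± 0.46, and none of 19 oxidative phosphorylation genes did (median 0.12). All 20 conjugation enzymes were above 0 (median 0.34), with none called: Sult1c2 changed by 1.34 ± 1.41 and Ugt1a6a by 0.32 ± 0.47. The median of the conjugation enzymes was 0.59 in females, with none below 0, and 0.07 in males, with 7 below 0. Without the arrays high in acinar transcripts their median was 0.15. The metallothioneins Mt1 and Mt2 changed by 0.33 ± 0.58 and 0.49 ± 0.67. Slc30a10, a manganese exporter, lay at -1.96 and -3.82 in males and -7.27 and -7.81 in females at 2 days, and at -0.23 and -1.70 in males and -3.30 and -1.08 in females at 21 days (3.64 ± 1.59, unadjusted p = 0.0305). It was well above background on 2 arrays of 2 days and 4 of 21 days. Its call was lost without either female of 2 days, without male 1 or female 2 of 21 days, without the arrays high in acinar transcripts and with normexp.

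Single members of other lists passed. Gadd45a, a DNA damage and stress gene, rose from between -0.34 and 0.17 to between 0.47 and 1.24 (0.83 ± 0.31), while the p53 targets Cdkn1a and Mdm2 changed by -0.49 ± 0.21 and -0.10 ± 0.15. The call of Gadd45a was lost without male 1 of 21 days, with scan day as a block and without the filter on dim probes. Herpud1 rose (0.74 ± 0.21, unadjusted p = 0.00136) and the chaperone Hspa5 fell (-0.62 ± 0.27), both of the unfolded protein response. Hspa5 changed by 0.17 in males and -1.41 in females, and lost its call without the arrays high in acinar transcripts. Acsl5, a fatty acid ligase, fell by 0.74 ± 0.30, with 1.93 on the array of female 2 at 2 days and no more than 0.02 on the other 7, and the call was lost without that array.

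Markers of tissue around the mucosa moved in part. Upk1b, a mesothelial uroplakin, rose from between -6.65 and -4.83 to between -5.20 and -3.52 (1.79 ± 0.61), and Gpm6a rose by 0.89 ± 0.40, the 2 called among 8 mesothelial genes (median 0.60), against 2.09% of all genes called higher, with Upk3b well above background on 2 arrays of 21 days and 1 of 2 days. The call of Upk1b held whichever single array was left out, and that of Gpm6a was lost without any of 5 single arrays, without the arrays high in squamous transcripts and with scan day as a block. Elavl3 and Elavl4 of enteric neurons changed by 0.01 ± 0.47 and -0.04 ± 0.42. Hoxa2, 1 of 13 anterior Hox genes, rose by 0.74 ± 0.30, a call lost without the arrays high in acinar transcripts. None of 16 smooth muscle, 17 skeletal muscle, 15 adipocyte, 16 endothelial, 21 acinar or 15 squamous genes passed. The spread of the acinar and squamous genes was wide, with a standard error of 2.62 for Cela2a.

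**Figure D4:**
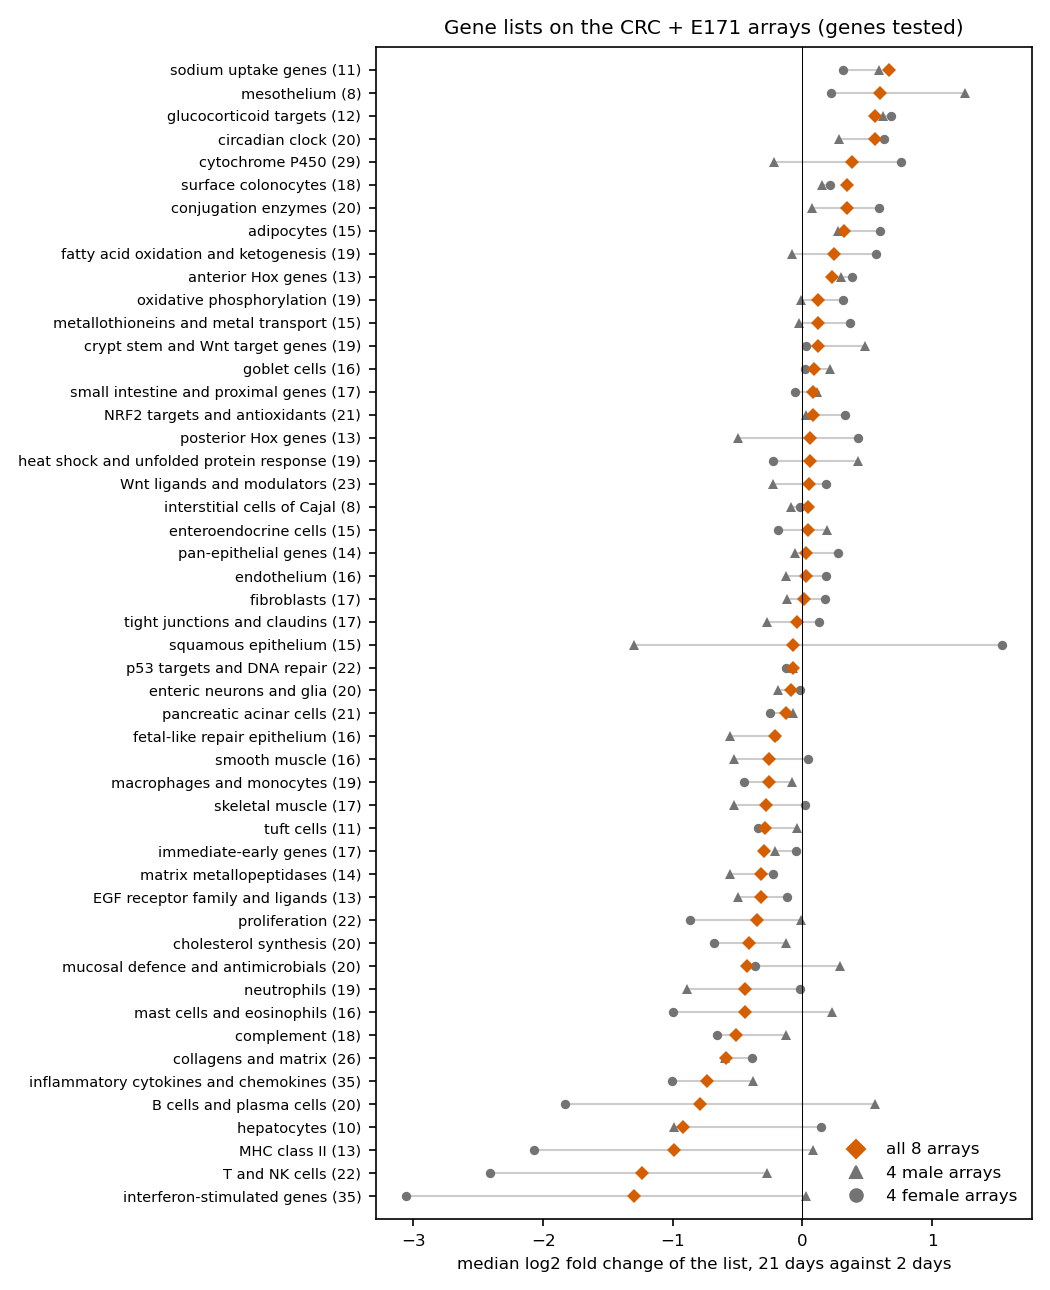
Median log2 fold change between 2 and 21 days of each of 50 gene lists on the CRC + E171 arrays (horizontal axis), with the number of genes tested in brackets. Orange diamonds are the fit over the 8 arrays, grey triangles the change in males and grey circles the change in females, joined by a line. The interferon-stimulated genes lie at -1.30 over the 8 arrays, 0.03 in males and -3.06 in females.

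Whether the change over time differed with E171 was tested as the difference between the change in CRC + E171 and that in CRC, which share no array. No gene had an adjusted p under 0.05 (smallest 0.9995, limma), the unadjusted p of 623 genes (3.15%) was below 0.05, and 448 (2.26%) passed the DEG rule for the difference. In CRC itself 710 genes (3.59%) were DEG between the days, 417 higher and 293 lower, and none passed after adjustment (smallest 0.286), with an unadjusted p below 0.05 for 5.45% of genes. Of these, 200 were DEG in the same direction with E171, 83 higher and 117 lower, which is 13.7% of the DEG with E171 and 28.2% of those in CRC, and 2 were in opposite directions. Of the 1463 DEG with E171, 1167 (79.8%) had the same sign in CRC, against 63.1% of all genes. The larger number of DEG with E171 is not by itself a difference between the treatments. CRC at 21 days held 3 arrays (male 1, female 1 and female 2), so the change in CRC was not balanced for sex.

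**Figure D5:**
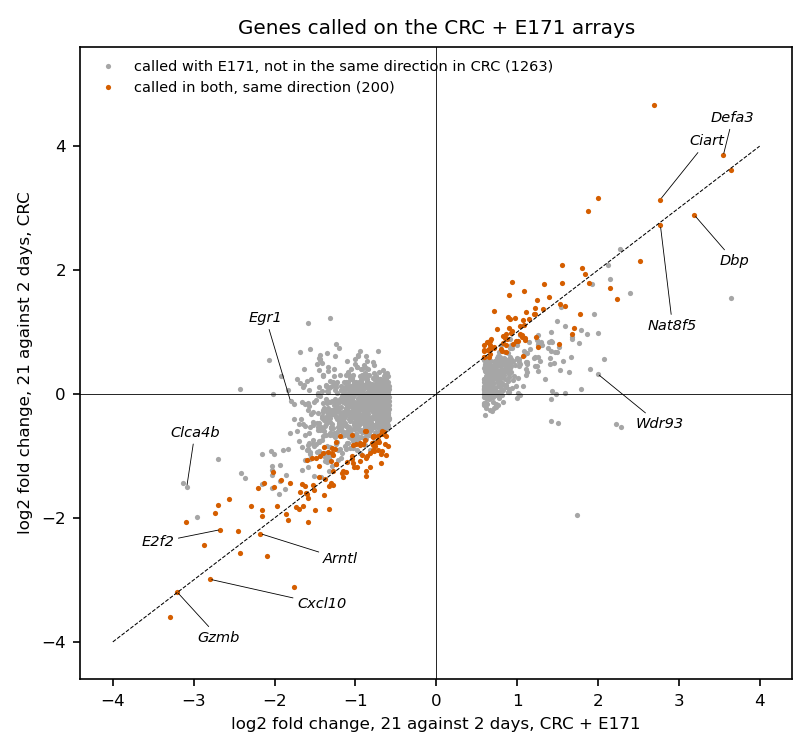
Log2 fold change between 2 and 21 days in CRC (vertical axis) against that in CRC + E171 (horizontal axis) for the 1463 genes called with E171. Orange points are the 200 genes called in the same direction in CRC, grey points the others, and the dashed line marks equal changes. Gzmb, Dbp, Arntl and Ciart lie near the line, and Egr1 and Wdr93 near 0 for CRC.

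Over all genes Pearson's r between the changes in the 2 treatments was 0.449, across genes, which are not independent. Of the genes described above, Gzmb changed by -3.21 with E171 and -3.19 in CRC, Nat8f5 by 2.77 and 2.72, Tmem132c by 2.52 and 2.15, and E2f2 by -2.67 and -2.19. Among genes that passed the rule for the difference, Otop2, a proton channel, was well above background on no E171 array of 21 days, so no size or rank is given. Krt16, a keratin of squamous epithelium, changed by -0.69 with E171 and 2.80 in CRC (difference -3.50, unadjusted p = 0.0463, adjusted p = 0.9995), and Il1f10, a cytokine of the interleukin 1 family found in skin, by -1.39 and 1.80 (-3.19, unadjusted p = 0.00628). None of the 3 passed for the change with E171, and Il1f10 was well above background on 1 E171 array of 21 days and 3 of 2 days. The squamous gene level was 6.34 on 1 of the 3 CRC arrays of 21 days, and the part of that array in these differences was not tested.

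Positive differences were led by Upp2, Wdr93 and Slc6a3. Upp2, a uridine phosphorylase, lay at -3.56 and -2.90 in males and -3.58 and -3.17 in females at 2 days and at -1.84, -3.48, -1.28 and -0.91 at 21 days (1.42 ± 0.46 with E171, -0.44 in CRC, difference 1.86, unadjusted p = 0.0101). Its fold change was -0.07 in the authors' normalized values. The call with E171 was lost with normexp, a stricter filter on dim probes, the probe of highest signal and the shared scan day alone. Wdr93, well above background on 1 of the 4 E171 arrays of 2 days, had fitted changes of 2.00 with E171 and 0.32 in CRC (difference 1.67, unadjusted p = 0.0291). Slc6a3, the dopamine transporter, did not pass with E171 (0.69 ± 0.36) and had a difference of 1.42 (unadjusted p = 0.0123). Gadd45a changed by 0.83 and -0.13 (difference 0.96, unadjusted p = 0.0450).

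Whether males and females changed alike was tested with 2 arrays in each group of day and sex. No gene passed after adjustment, and 1643 genes (8.3%) passed the DEG rule for the difference. The log2 fold change was higher in males for 942 (4.76%) and higher in females for 701 (3.54%). An unadjusted p below 0.05 was reached by 8.49% of genes. Beside Nr1d1 and Dbp, Gzma (-0.70 in males, -5.05 in females, unadjusted p = 0.00168) and Gzmb (-1.19 and -5.22, unadjusted p = 0.00408) differed. Ido1, an interferon-induced enzyme that degrades tryptophan, lay at 1.62 and -1.92 in males and 4.75 and 5.77 in females at 2 days, and between -0.46 and 0.78 at 21 days, and did not pass over both sexes (-2.24 ± 1.34). Tas2r104, a bitter taste receptor gene, had opposite changes in males (-2.47) and females (2.65, unadjusted p of the difference 0.00216), and was well above background on 3 arrays of 21 days and 2 of 2 days. The 2 day females were on slides with the 2 day males of the same replicate number.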

How the data were processed

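Distal colon RNA of 31 mice was hybridised to 31 one-colour Agilent arrays on 8 slides, scanned on 3 days. The authors deposited, per the file headers, spot intensity values from Agilent Feature Extraction, already background-subtracted by that software and not normalised between arrays. The authors also deposited a matrix of log2 values, normalised between arrays, filtered and imputed, with the normalization method not given in the sources used here; it served as an alternative. Groups were taken from the sample titles. The treatment text of the labels names the vehicle for every sample.

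Intensity was converted to log2 and the array's 75th percentile over non-control probes was subtracted. Of 56605 probes other than controls, 42787 were kept, being well above background on at least 60% of the arrays of a group with a mean log2 signal of at least 4 there, and the probes of a gene were averaged, which gave 19797 genes. Probes were named through RefSeq accessions, symbols or synonyms, and 12867 had no match. LIMMA (limma 3.58.1, R 4.3.3, statmod 1.5.0) was fitted to all arrays in 8 groups, without covariates, with Benjamini-Hochberg adjustment over all genes. Each standard error therefore drew on the spread within all 8 groups and not only within the groups compared. As no gene had an adjusted p under 0.05, a gene was called by a linear fold change of at least 1.5 and an unadjusted p under 0.05. The methods write that fold-change limit in log2 terms, and the linear reading was used here. Sexes were compared in a fit of treatment, day and sex. Single genes were checked with exact two-sided permutation tests.

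The genes named were the 12 largest increases and decreases with arrays apart and a probe well above background on at least 3 arrays of the higher group, clone and locus names left out. Up to 4 called members and the first 2 members of each list, and the 3 largest differences in each direction between treatments or sexes, were added. Any further gene was picked with its values in view. The comparison, its lists and its tests were chosen with earlier results of these data known. Replicates were separate mice, and their number limits the precision. The fitting scripts were tested on simulated data. Promoter sequences are those of RefSeq (GRCm38.p6), with the motif letters of the text searched in 250 bases. A few members of the lists are not reported here.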

Additional observations from a re-analysis of the deposited data

Results flagged for a closer look

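Of 162 groups of 4 arrays examined (81 genes, 2 groups each), 2 held an array far from the other 3, where chance alone places about 1 in 20 groups past the same limit (Dixon's critical value). Acsl5, a fatty acid ligase, lay at 1.93 on the array of female 2 at 2 days, while the other 3 arrays of that group lay between -0.18 and 0.02. C1ra, a complement protease, lay at 0.59 on the array of female 2 at 21 days, while the other 3 of its group lay between 1.03 and 1.12. Both arrays were those high in pancreatic acinar transcripts (levels of 10.003 and 9.76), and the part of those transcripts in these values was not tested.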

How the results depend on the processing

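The 1463 DEG became 774 with normexp and 2768 with array weights, ranged from 838 to 2347 as single arrays were left out, and from 1116 (scan day as a block) to 1743 (only the 8 arrays) under the other alternatives. Genes with an adjusted p under 0.05 numbered 0 in the fit reported, 6 with quantile normalization, 10 with the probe of highest signal, 11 with an intensity trend, 742 with array weights (574 with the fold limit) and 7 without the CRC array of 14 days labelled male 2, whose Xist signal lay among the females, and ranged from 0 to 111 as single arrays were left out (0 to 106 with the fold limit). With sex and replicate number as a replicate block 27 passed and 1743 genes were DEG, 1424 of them shared; the numbers are not shown to pair mice, since the correlations of same-numbered deviations were 0.31, -0.04, 0.09 and 0.48 and 2 of 4 arrays correlated best with their own number. The 448 differences between treatments became 297 with normexp, 741 with the arrays of the compared groups alone, 707 with the replicate block and 1440 with array weights, and ranged from 272 to 815 as single arrays were left out. The 1643 differences between sexes ranged from 876 to 2469 as single arrays were left out, with 0 to 5 after adjustment, and 1 passed adjustment without the filter on dim probes. Signs turned for 3 named genes. Tas2r104 (0.09) was at -0.05 with normexp, -0.49 with array weights, -0.39 without the arrays high in acinar transcripts and between -0.69 and 0.95 as single arrays were left out, below 0 without 3 of them. Upp2 (1.42) was at -0.07 in the authors' values, and Krt16 (-0.69) at 0.07 on scan day 2. The cause was not tested. For single genes, the other alternatives gave the same call 1271 times, a lost call 160 times and a gained call 14 times, and leaving out single arrays gave 507, 130 and 8. The alternatives without arrays of another tissue, without the 14 day CRC array and on scan day 2, and single arrays left out for the sexes, were chosen after seeing the data. Dim genes limit the comparison: 110 DEG had no array well above background in 1 group.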
